A study of Mus musculus with 28 samples.

Results

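Of the 49585 annotated features counted in mouse liver RNA, the 10 genes described here were chosen by name, as subunits and feedback targets of NF-κB: Rela, Relb, Rel, Nfkb1, Nfkb2, Nfkbia, Nfkbie, Tnfaip3, Tnf and Il1b. They and the gene lists used below were chosen with earlier results of these data known. All 10 genes were among the 21583 genes tested, which required 0.5 or more normalized counts (counts scaled for library size and composition) on average over the libraries. The libraries came from 28 C57BL/6JOlaHsd mice aged 5 to 7 months, 7 in each of the groups male wild type (WT), male SIRT6-transgenic (SIRT6-tg), WT females and SIRT6-tg females. SIRT6 is a nuclear NAD+-dependent deacylase. The transgenic mice were of a single line that had been backcrossed to the C57BL/6JOlaHsd strain, WT mice were littermates, and all were kept on a standard chow diet and fasted for a few hours before the livers were taken. The transgene is not restricted to the liver, and the whole tissue was sequenced. The design asks how the transgene changes the liver transcriptome in each sex.

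NF-κB is a family of dimeric transcription factors held in the cytoplasm by IκB proteins. Receptors of tumor necrosis factor, interleukin-1 and microbial products activate the IκB kinase, the IκB protein is degraded, and dimers that contain RELA or REL enter the nucleus (the canonical pathway). The non-canonical pathway processes the NFKB2 precursor and releases dimers that contain RELB. Several of the genes induced by NF-κB limit it in turn, among them the IκB proteins and the ubiquitin-editing enzyme A20, and in liver the pathway is known from hepatocytes, where it protects against cell death, and from Kupffer cells, where it drives cytokine expression.

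On GRCm38 the subunit genes were Rela (ENSMUSG00000024927.7) at chr19:5637483-5648130, plus strand, Relb (ENSMUSG00000002983.17) at chr7:19606217-19629438, minus strand, Rel (ENSMUSG00000020275.9) at chr11:23736847-23770970, minus strand, Nfkb1 (ENSMUSG00000028163.17) at chr3:135584655-135691547, minus strand, and Nfkb2 (ENSMUSG00000025225.14) at chr19:46304320-46312385, plus strand. The inhibitor genes were Nfkbia (ENSMUSG00000021025.7) at chr12:55489410-55492647, minus strand, Nfkbie (ENSMUSG00000023947.7) at chr17:45555703-45563169, plus strand, and Tnfaip3 (ENSMUSG00000019850.11) at chr10:19000910-19015657, minus strand. The cytokine genes were Tnf (ENSMUSG00000024401.14) at chr17:35199381-35202007, minus strand, and Il1b (ENSMUSG00000027398.13) at chr2:129364570-129371139, minus strand. Values are sums over all exons of a gene and do not separate isoforms.

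The promoters are shown because κB sites are the feature by which NF-κB autoregulates this family. RefSeq promoters on GRCm38.p6 were found for 8 of the 10 genes (Relb and Nfkb1 were not among them), and the 250 bases before each start site were searched on both strands for the κB consensus. Of these 8 genes, 5 held a match (Rel, Nfkb2, Nfkbia, Nfkbie and Tnfaip3), against 8.23% of the 27025 genes and 7.25% of the 32851 promoters in the same collection. Overlapping matches are counted by gene, and a match of letters is a description and not a binding site. Capitals mark the matches in the sequences below, which run 5′ to 3′ on the strand of the gene. No match was found in the windows of Rela, Tnf and Il1b, and the Tnf promoter is shown as an example. For the windows of Nfkb2 and Tnfaip3 that overlap annotated exons, 30 bases around a match are shown. Both genes had further start sites, and Nfkb2 had further matches, which are not shown.
Rel, chr11:23770971-23771219, minus strand: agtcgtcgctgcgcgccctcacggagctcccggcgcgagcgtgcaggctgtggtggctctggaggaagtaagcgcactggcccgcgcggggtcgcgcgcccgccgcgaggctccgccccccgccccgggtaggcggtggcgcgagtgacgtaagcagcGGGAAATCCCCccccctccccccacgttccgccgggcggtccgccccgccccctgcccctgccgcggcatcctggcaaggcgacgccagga
Nfkbia, chr12:55492648-55492897, minus strand: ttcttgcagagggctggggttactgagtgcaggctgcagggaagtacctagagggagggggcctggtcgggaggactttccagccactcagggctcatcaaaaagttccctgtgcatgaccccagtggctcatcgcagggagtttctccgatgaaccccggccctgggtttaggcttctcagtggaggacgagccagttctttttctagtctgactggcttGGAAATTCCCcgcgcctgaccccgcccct
Nfkbie, chr17:45555450-45555699, plus strand: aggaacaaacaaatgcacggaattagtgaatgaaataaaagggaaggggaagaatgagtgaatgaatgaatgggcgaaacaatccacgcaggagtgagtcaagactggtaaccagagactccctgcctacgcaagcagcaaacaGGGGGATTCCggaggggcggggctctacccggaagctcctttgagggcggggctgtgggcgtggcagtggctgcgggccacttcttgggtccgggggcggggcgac
Nfkb2, chr19:46304688-46304717, plus strand: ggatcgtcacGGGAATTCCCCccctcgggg
Tnfaip3, chr10:19015516-19015545, minus strand: gactcacgcgGGGACACCCCggggcgggac
Tnfaip3, chr10:19015411-19015440, minus strand: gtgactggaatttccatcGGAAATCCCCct
Tnf, chr17:35202008-35202257, minus strand: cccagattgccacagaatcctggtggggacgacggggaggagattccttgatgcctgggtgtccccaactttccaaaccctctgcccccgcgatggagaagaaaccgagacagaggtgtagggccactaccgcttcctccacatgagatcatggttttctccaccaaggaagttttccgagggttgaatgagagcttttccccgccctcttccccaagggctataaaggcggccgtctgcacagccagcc

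Total counts were between 18758863 and 35393069 per library. Sirt6, whose count sums endogenous and transgene reads, separated the genotypes in both sexes. It was at 44.8 to 85.9 normalized counts in male WT mice and 5263 to 9517 in male SIRT6-tg mice, and at 47.9 to 165 in female WT mice and 434 to 1335 in female SIRT6-tg mice. Hepatocyte markers summed to 90282 to 182141 CPM (counts relative to the normalized library total) over the 28 libraries, and markers of blood and immune cells were also present. Whole-liver RNA cannot tell fewer cells of a type from less RNA per cell. When libraries were scaled by their totals only, the median log2 fold change over all genes moved from 0.06 to -0.22 between male genotypes, from 0.03 to -0.25 in the difference between the sexes, and from -0.0033 to 0.19 between WT males and WT females, so folds below are relative to normalization by trimmed mean of M-values (TMM) unless stated.

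In livers of male mice, 8 of the 10 genes were lower in SIRT6-tg than in WT mice, and none was higher (adjusted p under 0.05, edgeR quasi-likelihood test). Of all genes tested, 11.0% were lower and 9.68% were higher. With TMM 46.8% of the genes that changed in males were higher, with library size alone 4.89%. The inhibitor Tnfaip3 and the cytokines Tnf and Il1b, together with the non-canonical subunit Relb, had ranges that did not overlap between the genotypes, which held in the lower direction for 4.37% of genes. Rela, the main activating subunit, and Nfkbia, which encodes the classical inhibitor IκBα, did not pass. The median log2 fold change of the 10 genes was -0.90, against 0.06 over all genes tested.

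**Figure D1:**
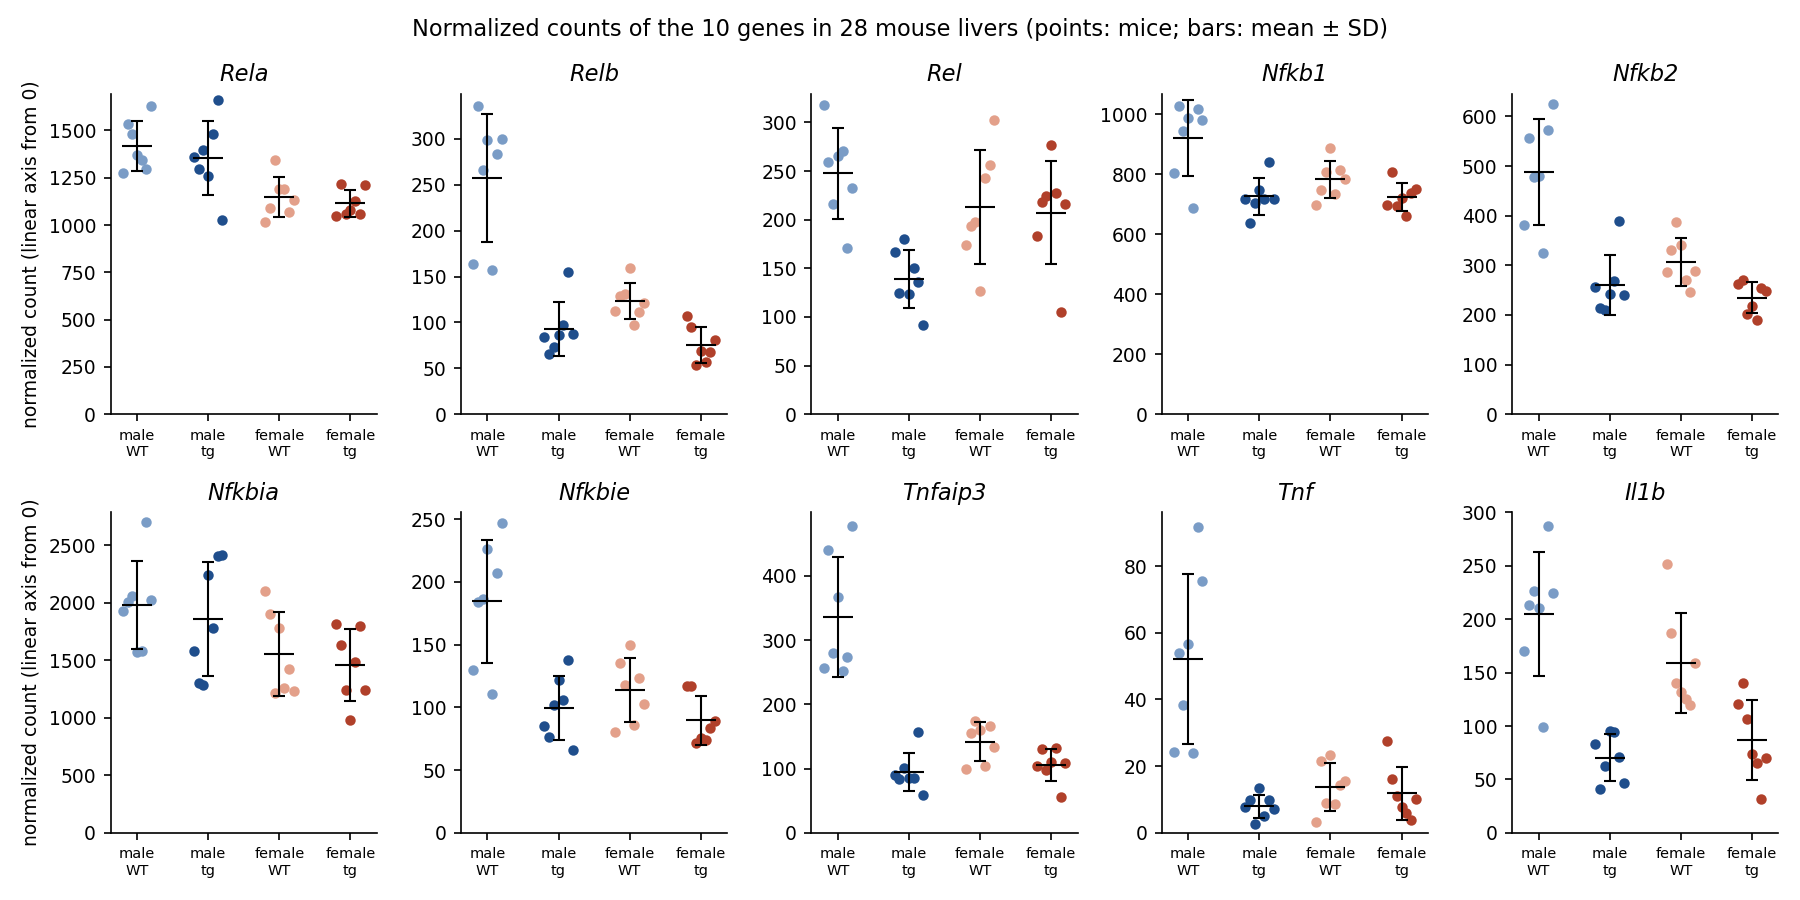
Normalized count of each of the 10 genes (y axis, linear from 0, own scale for each gene) in each of the 28 mice (points) by group (x axis), with the mean and SD of 7 mice per group (bars). Relb, Tnfaip3, Tnf and Il1b of male WT mice lie above those of every male SIRT6-tg mouse, whereas the points of Rela and Nfkbia overlap between genotypes.

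Among the subunits, Rela had 1274, 1370 and 1630 normalized counts (lowest, median and highest of 7) in male WT mice and 1028, 1361 and 1663 in male SIRT6-tg mice. The groups overlapped almost wholly. The log2 fold change was -0.07 with a 95% interval of -0.25 to 0.11 (adjusted p = 0.656), and with library size alone it was -0.34 and passed (adjusted p = 0.0211). Relb, the partner of processed NFKB2, had 157, 283 and 335 in male WT mice and 65.2, 86.6 and 155 in male SIRT6-tg mice. No SIRT6-tg male reached the lowest WT male, although the lowest WT males (replicates 5 and 1, at 157 and 163) and the highest SIRT6-tg male (replicate 6, at 155) were close. Relb fell by 64.1%, a log2 fold change of -1.48 ± 0.19 (SE, adjusted p = 8.31e-07).

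Rel, which encodes c-Rel, a subunit best known from lymphocytes and myeloid cells, had 171, 259 and 318 normalized counts in male WT mice and 91.6, 136 and 180 in male SIRT6-tg mice. The groups overlapped in a single mouse of each, since replicate 6 of the WT males, at 171, was below replicate 3 of the SIRT6-tg males, at 180. The log2 fold change was -0.83 ± 0.18 (adjusted p = 0.00119). The order of the WT males differed from that of Relb, since replicates 1 and 5, lowest for Relb, were highest for Rel, at 318 and 271.

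The precursor genes both fell in males, by unequal amounts. Nfkb1, the precursor of p50, had 688, 979 and 1028 normalized counts in WT males and 638, 717 and 841 in SIRT6-tg males. The overlap came from the lowest WT males, replicates 5 and 1 (688 and 805), and the log2 fold change was -0.34 ± 0.09 (adjusted p = 0.00392). Nfkb2, the precursor of p52, had 324, 479 and 624 in WT males and 210, 241 and 389 in SIRT6-tg males. Only replicate 6 of the SIRT6-tg males, at 389, lay inside the WT range, above WT replicates 5 and 1. Its log2 fold change was -0.91 ± 0.14 (adjusted p = 1.65e-05). Nfkb2 shares exon bases with genes on the opposite strand, and since the strand setting of the counting was not stated, its reads could not be assigned with certainty.

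The inhibitors divided. Nfkbia had 1569, 2003 and 2702 normalized counts in male WT mice and 1287, 1783 and 2414 in male SIRT6-tg mice. These ranges overlapped broadly, and the log2 fold change was -0.09 with a 95% interval of -0.43 to 0.25 (adjusted p = 0.761). Nfkbie, which encodes IκBε, had 111, 186 and 247 in WT males and 66.2, 102 and 138 in SIRT6-tg males. Its groups overlapped through WT replicates 5 and 1 (111 and 130), and it fell by 46.1% (log2 fold change -0.89 ± 0.18, adjusted p = 0.000538). Tnfaip3 encodes A20, which removes and edits ubiquitin chains on RIPK1 and other signalling proteins. It had 252, 280 and 478 in WT males and 59.2, 85.6 and 157 in SIRT6-tg males. Every WT male was above every SIRT6-tg male, and Tnfaip3 fell by 71.8% (log2 fold change -1.82 ± 0.19, adjusted p = 7.92e-08).

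Both cytokine genes fell in males. Tnf, which encodes tumor necrosis factor, had 24, 54 and 91.8 normalized counts in WT males and 2.75, 7.64 and 13.4 in SIRT6-tg males. Its raw counts in SIRT6-tg males were between 3 and 13 per library, so counting error was large there, yet the ranges did not overlap. Tnf fell by 84.7% (log2 fold change -2.71 ± 0.39, adjusted p = 6.74e-06), the lowest fold of the 10 genes. Il1b, which encodes interleukin-1β and is made mainly by myeloid cells, had 98.7, 213 and 288 in WT males and 40.9, 71.2 and 94.9 in SIRT6-tg males. The ranges did not overlap by a small margin, between WT replicate 5 and SIRT6-tg replicate 4, and the log2 fold change was -1.53 ± 0.25 (adjusted p = 3.83e-05). A few exon bases of Il1b are shared with an antisense gene, and the same limit on strand applied.

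In females none of the 10 genes passed (edgeR), and DESeq2 called none either. Of all genes, 0.0278% passed between female genotypes. At an unadjusted p under 0.05, 4 of the 10 were lower, against 3.14% of all genes lower by that rule. These were Relb, Nfkb2, Tnfaip3 and Il1b. All 10 estimates were below 0, with a median of -0.27 against 0.0026 over all genes, although leaving out single libraries moved that of Rela to 0.0001 and that of Rel to at most 0.07.

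Relb had 97.5, 121 and 160 normalized counts in female WT mice and 54.2, 68.7 and 107 in female SIRT6-tg mice. Only 1 SIRT6-tg female was inside the WT range, and the log2 fold change was -0.70 ± 0.19 (adjusted p = 0.290). Il1b had 120, 140 and 252 in WT females and 32.0, 73.5 and 141 in SIRT6-tg females, with a log2 fold change of -0.87 ± 0.25 (adjusted p = 0.368). Of the 7 SIRT6-tg females, 5 were below all WT females. Nfkb2 had 246, 288 and 386 in WT females and 189, 248 and 270 in SIRT6-tg females, and its log2 fold change was -0.39 ± 0.14 (adjusted p = 0.596). Tnfaip3 had 99.9, 155 and 174 in WT females and 56.4, 108 and 133 in SIRT6-tg females, with a log2 fold change of -0.42 ± 0.19 (adjusted p = 0.838). Both overlapped between the genotypes.

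The other 6 members had an unadjusted p above 0.05 between female genotypes. Tnf had 3.26, 14.2 and 23.3 normalized counts in WT females and 3.84, 10.3 and 27.7 in SIRT6-tg females, and its 95% interval was wide, from -1.03 to 0.63 on the log2 scale. Nfkbie had 80.4, 118 and 150 in WT females and 71.9, 83.2 and 117 in SIRT6-tg females, with a log2 fold change of -0.34 ± 0.18 and a 95% interval of -0.72 to 0.04. Rela had 1018, 1131 and 1342 in WT females and 1048, 1077 and 1215 in SIRT6-tg females. Its 95% interval was narrow, from -0.22 to 0.14. Rel had 126, 197 and 303 in WT females and 105, 218 and 277 in SIRT6-tg females (95% interval -0.41 to 0.33). Nfkb1 had 698, 785 and 887 in WT females and 661, 722 and 809 in SIRT6-tg females (95% interval -0.29 to 0.06). Nfkbia had 1212, 1421 and 2100 in WT females and 984, 1481 and 1812 in SIRT6-tg females (95% interval -0.44 to 0.24). All of these ranges overlapped.

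**Figure D2:**
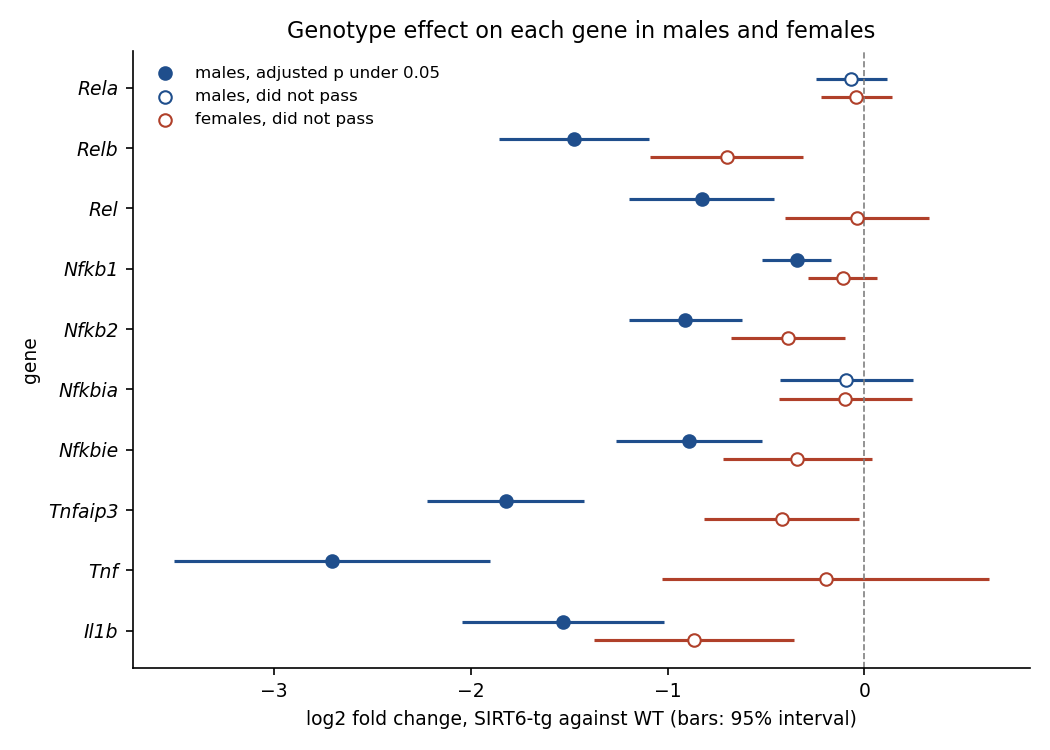
Log2 fold change of SIRT6-tg against WT mice (x axis) for each gene (y axis) in males (blue) and females (red), with 95% intervals from the edgeR fit. Filled points had an adjusted p under 0.05, which 8 genes had in males and none in females. The intervals of males and females do not overlap for Relb, Rel, Tnfaip3 and Tnf, of which Tnfaip3 and Tnf passed the test of the difference.

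The difference between the genotype effects of males and females was tested directly. It passed for Tnfaip3 and Tnf, and for 3.84% of all genes in the direction of a lower male effect. The male effect on Tnfaip3 was lower than the female effect by a log2 difference of -1.40 ± 0.27 (adjusted p = 0.00221), and on Tnf by -2.51 ± 0.57 (adjusted p = 0.00746). Rel (-0.79 ± 0.26, adjusted p = 0.0688) and Relb (-0.78 ± 0.27, adjusted p = 0.0875) did not pass, nor did Nfkb2 (-0.52 ± 0.20, adjusted p = 0.137) or Il1b (-0.66 ± 0.35, adjusted p = 0.311). Rel passed with RLE factors, upper-quartile factors and filterByExpr (adjusted p = 0.0484, 0.0389 and 0.0484). Rel and Relb passed with DESeq2 (0.0208 and 0.0393), and Relb and Nfkb2 passed without replicate 6 of the male SIRT6-tg mice (adjusted p = 0.0182 and 0.0324). With library size alone Relb, Rel, Nfkb1 and Nfkb2 passed (adjusted p = 0.0112, 0.0126, 0.0156 and 0.0112). The calls for Tnfaip3 and Tnf held under every alternative run. Immune cell markers differed in the same direction, with a lower male effect for 3 of 5 leukocyte markers (median of the list -1.15), 5 of 8 T-cell markers (median -1.54) and 2 of 8 macrophage markers (median -0.88), and their part was not tested. Relb also passed without WT males 1 or 5, and Rel without WT male 6, SIRT6-tg male 3, WT female 7 or SIRT6-tg female 6. Sirt6 itself rose by a log2 fold change of 6.68 in males and 3.39 in females. In these comparisons an effect of sex and an effect of transgene level therefore cannot be told apart.

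Among WT mice most members were higher in males than in females. This comparison shares the male WT mice with the male genotype comparison, so their values are not independent. All 10 estimates were higher in males, 6 of them past the threshold, against 6.65% of all genes higher. Tnf was 3.82 times as high in WT males as in WT females by the fitted fold (log2 difference 1.94 ± 0.37, adjusted p = 0.00046). Tnfaip3 was 2.36 times as high (1.24 ± 0.19, adjusted p = 2.89e-05). For both, every male exceeded every female, which held for 1.33% of genes. Relb (1.07 ± 0.18, adjusted p = 0.000151), Nfkbie (0.70 ± 0.18, adjusted p = 0.00836) and Nfkb2 (0.67 ± 0.14, adjusted p = 0.0014) were also higher in males, with overlap. Rela was higher by only 0.31 ± 0.09 (adjusted p = 0.0187), and Nfkb1, Nfkbia, Rel and Il1b did not pass. Nfkb1, at 0.24 ± 0.09 (adjusted p = 0.0672), passed with RLE factors, filterByExpr, DESeq2 and library size alone (adjusted p = 0.045, 0.0347, 0.0152 and 0.0027), and when WT male 1, WT male 5 or WT female 4 was left out (adjusted p = 0.028, 0.0108 and 0.0398). Nfkbia, at 0.35 ± 0.17 (adjusted p = 0.189), passed with library size alone (0.55, adjusted p = 0.00984). Immune cell markers were higher in WT males as well. All 8 T-cell markers, 3 of 5 leukocyte markers and 1 of 8 macrophage markers passed, with T-cell sums of 15.3 to 46.3 CPM in WT males and 5.73 to 18.5 CPM in WT females. Their part in the sex difference of the members was not tested.

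Among SIRT6-tg mice 2 of the 10 members differed between the sexes. Of the 21583 genes tested 4988 did so, a similar share. Sirt6 was also higher in SIRT6-tg males (log2 difference 3.22), so sex and transgene level cannot be told apart. Rela was higher in males (log2 difference 0.28 ± 0.09, adjusted p = 0.0204), as were 12.9% of all genes. Rel was lower in males (-0.57 ± 0.18, adjusted p = 0.0222), as were 10.2% of all genes. Neither Tnfaip3 (-0.16, 95% interval -0.56 to 0.24) nor Tnf (-0.57, 95% interval -1.46 to 0.32) passed. The call for Rela was lost with upper-quartile factors (0.21, adjusted p = 0.0796), with library size alone (0.19, adjusted p = 0.22) and without SIRT6-tg male 6 (adjusted p = 0.0596), and that for Rel without SIRT6-tg male 4 or 7 or SIRT6-tg female 4 (adjusted p = 0.0503, 0.0596 and 0.0651).

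Levels of different genes were compared per length, as CPM per kilobase of exon. The length was the union of the exons of all annotated isoforms, 12061 bases for Nfkb1, 7466 for Rel and 3072 for Rela. An expressed isoform can be shorter than this union, so the order of the genes depends on the length used. In all 4 groups Nfkbia was the most abundant of the 10 genes and Rela the next, and in every mouse Nfkbia exceeded Rela. Nfkbia stood at 46.3 ± 8.87 CPM per kilobase (mean ± SD, n = 7) in WT males and 43.4 ± 11.6 in SIRT6-tg males, and Rela at 17.4 ± 1.62 and 16.6 ± 2.41. Il1b followed in WT males (4.04 ± 1.15) and WT females (3.14 ± 0.924), but its level was not separated from that of Nfkb2 in WT males (4.01 ± 0.879), which was below Il1b in 4 of 7 mice. In SIRT6-tg males Il1b (1.39 ± 0.43) was instead below Nfkb1 (2.27 ± 0.189) and Nfkb2 (2.13 ± 0.497). Tnf had the lowest mean in each group, from 0.183 ± 0.0808 in SIRT6-tg males to 1.2 ± 0.587 in WT males, where it was close to Rel (1.25 ± 0.235).

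Rela took a larger share of the subunit mRNA in male SIRT6-tg than in male WT mice. This description was added after the values were seen and carries no test or comparison with all genes. The shares are parts of a sum, so that of Rela rises when the other subunit genes fall. Their sizes also depend on the exon lengths used, 12061 bases for Nfkb1 against 3072 for Rela. Before division by length, Nfkb1 had a mean of 921 normalized counts in WT males, against 1419 for Rela. Rela itself did not pass between male genotypes (log2 fold change -0.07), so its larger share is not a separate change of Rela. Rela made up 58.1% to 68.1% of the summed CPM per kilobase of the 5 subunit genes in WT males (mean 62.2%) and 69.5% to 76.0% in SIRT6-tg males (mean 73.4%), with no overlap. Relb held 6.31% to 10.4% in WT males and 3.03% to 5.28% in SIRT6-tg males, also without overlap. The share of Nfkb2 moved from a mean of 14.2% to 9.41%, with overlapping ranges, while that of Nfkb1 was 10.3% and 10.1%. In females Rela held 64.7% to 68.5% in WT mice (mean 66.0%) and 67.2% to 72.3% in SIRT6-tg mice (mean 69.6%), and these ranges overlapped. The summed level of the 5 genes was 28 ± 3.05 CPM per kilobase in WT males and 22.6 ± 3.19 in SIRT6-tg males (SD, n = 7).

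**Figure D3:**
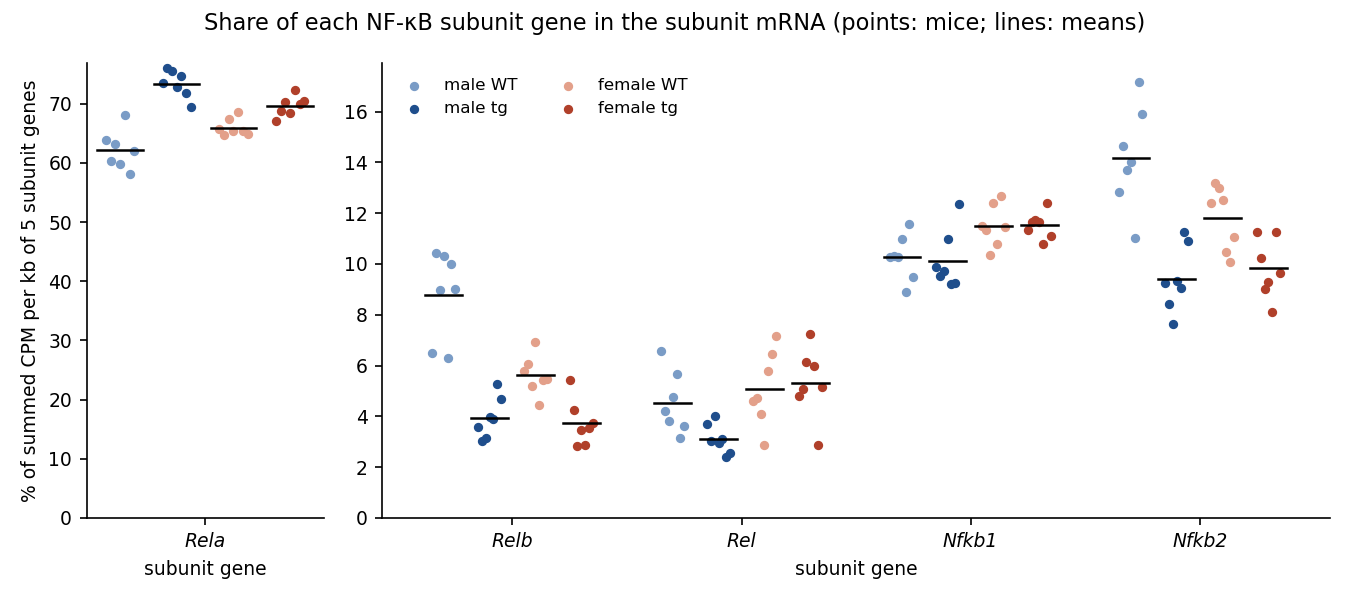
Share of each NF-κB subunit gene in the summed CPM per kilobase of the 5 subunit genes (y axes, percent, from 0, with a separate axis for Rela), in each mouse (points) of the 4 groups (colours), with group means (lines). The Rela share of every male SIRT6-tg mouse (69.5% to 76.0%) is above that of every male WT mouse (58.1% to 68.1%), and the Relb share of every male SIRT6-tg mouse is below.

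Each member was also set against Rela within its library. The log2 ratio to Rela was lower in SIRT6-tg males without overlap for Tnf (difference of means -2.53), Tnfaip3 (-1.75), Relb (-1.39), Nfkb2 (-0.83) and Rel (-0.76), which held for 3.53% of all genes. The ratios of Nfkb1 (-0.26), Nfkbie (-0.81), Il1b (-1.46) and Nfkbia (-0.04) overlapped. A ratio within a library does not depend on the scaling between libraries, but it shows unequal change and not which of the genes changed.

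Markers of immune cells moved with the members. In males all 5 leukocyte markers, 8 of 8 T-cell markers, 8 of 8 macrophage markers and 3 of 5 B-cell markers were lower in SIRT6-tg mice, as were 5 of 5 stellate cell markers and 1 of 5 endothelial markers. None of the 4 neutrophil markers tested passed, and 2 of 7 hepatocyte markers were higher. Of all genes tested 11.0% were lower and 9.68% higher between male genotypes, and the smaller of these counts are near that background. Leukocyte markers summed to 104 to 227 CPM in WT males and 44.3 to 72.8 in SIRT6-tg males, T-cell markers to 15.3 to 46.3 and 5.26 to 8.13, and macrophage markers to 354 to 1183 and 305 to 512. In females no marker of leukocytes, T cells or macrophages passed. At an unadjusted p under 0.05, 4 of 8 T-cell markers, 1 of 5 leukocyte markers and 1 of 8 macrophage markers were lower, against 3.14% of all genes. All estimates of these lists were below 0 (medians -0.50, -0.27 and -0.23). Leukocyte markers summed to 64.6 to 125 CPM in WT and 61.3 to 109 in SIRT6-tg mice. No marker of these lists was at 0 in every library of a group, apart from 1 neutrophil marker in male SIRT6-tg mice. Libraries that were low or high for several members were so for several of these lists, but not for all. WT males 1 and 5 had the lowest summed leukocyte and T-cell markers of their group, but WT male 1 had the highest summed B-cell markers. SIRT6-tg male 6 had the highest summed T-cell, macrophage, neutrophil and endothelial markers of its group. WT male 6 was the lowest WT male for Rel and the highest for Nfkbia. It had the highest summed leukocyte, T-cell, neutrophil, endothelial and stellate cell markers of its group. The part of these markers in the results was not tested.

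As a description, each member was also set against the summed leukocyte markers of its own library. In males the log2 ratio of Relb differed by 0.03 between the genotypes and that of Il1b by -0.03, both with overlap. The ratios of Tnfaip3 (-0.33) and Tnf (-1.10) were lower in SIRT6-tg males, again with overlap. Rela (1.42), Nfkbia (1.38) and Nfkb1 (1.16) were higher relative to leukocyte markers in every SIRT6-tg male than in any WT male. This held for 43.7% of all genes, a larger share than 3 of 10 members. The summed leukocyte markers, the denominator, were themselves lower in SIRT6-tg males, with a mean of 57.3 CPM against 166 CPM in WT males. The ratios of Rel (0.66), Nfkbie (0.62) and Nfkb2 (0.59) were higher on average and overlapped.

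Along the rest of the pathway, 63 genes in 5 lists were measured, of which 27 were lower and 4 higher in male SIRT6-tg mice, and none passed in females (11 at an unadjusted p under 0.05). Over all genes 11.0% were lower and 9.68% higher in male SIRT6-tg mice, which is the background for the counts of each list below. Of the 27 lower genes, 16 were in the list of other NF-κB targets. Of the other 4 IκB family genes, 2 were lower. Nfkbid, a nuclear IκB of lymphocytes, had 18.7, 31.3 and 35.8 normalized counts in WT males and 4.38, 9.83 and 21.7 in SIRT6-tg males (log2 fold change -1.5 ± 0.32, adjusted p = 0.000835). Nfkbiz, a nuclear IκB that promotes secondary response genes, was lower by a smaller log2 fold change of -0.44 ± 0.14 (adjusted p = 0.0197).

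The kinases did not move in 1 direction. Of 10, 2 were lower and 2 higher in SIRT6-tg males, with a median log2 fold change of -0.02. Map3k14, which encodes NIK, the kinase that starts the non-canonical pathway, was lower (-0.59 ± 0.16, adjusted p = 0.00934), as was Ikbke (-0.55 ± 0.15, adjusted p = 0.00942). Chuk, which encodes IKKα, was higher (0.36 ± 0.09, adjusted p = 0.00234), and so was Irak1, a kinase of interleukin-1 and Toll-like receptors (0.20 ± 0.06, adjusted p = 0.0256). Of 19 adaptors and ubiquitin enzymes, 4 were lower and none higher. Traf1, itself an NF-κB target, had 48.0, 84.9 and 116 normalized counts in WT males and 8.74, 17.5 and 21 in SIRT6-tg males, without overlap (-2.36 ± 0.25, adjusted p = 5.93e-08). Tnip1, a partner of A20, was also lower (-0.57 ± 0.11, adjusted p = 0.000457), and the others, named after their values were seen, were Traf3 (-0.54) and Birc3 (-0.31).

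Of 8 receptors, 3 were lower and 1 higher in SIRT6-tg males. Cd40, a receptor of antigen-presenting cells, had 36, 79.7 and 120 normalized counts in WT males and 9.83, 18.6 and 30.7 in SIRT6-tg males (log2 fold change -2.12 ± 0.26, adjusted p = 6.58e-07). Tnfrsf11a, which encodes RANK, was lower as well (-1.54 ± 0.20, adjusted p = 1.49e-06), and the remaining one, named after its values were seen, was Tlr4 (-0.91). Il1rap, the accessory chain of the interleukin-1 receptor, was higher, at 2703, 3315 and 3853 in WT males and 4955, 5463 and 5988 in SIRT6-tg males (0.71 ± 0.10, adjusted p = 2.1e-06). Of 22 other target genes, 16 were lower and 1 higher, with a median log2 fold change of -1.44. The chemokine Cxcl10 had 537, 948 and 1399 in WT males and 69.8, 119 and 260 in SIRT6-tg males (-2.74 ± 0.28, adjusted p = 5.92e-08), and Ccl4 had 45.3, 99.6 and 303 and 1.84, 3.98 and 9.86 (-4.71 ± 0.50, adjusted p = 8.58e-08). Sod2, which encodes the mitochondrial superoxide dismutase, was higher (0.43 ± 0.08, adjusted p = 0.000425). The effect differed between the sexes for 13 of the 22 targets, all with a lower male effect, against 3.84% of all genes in that direction.

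**Figure D4:**
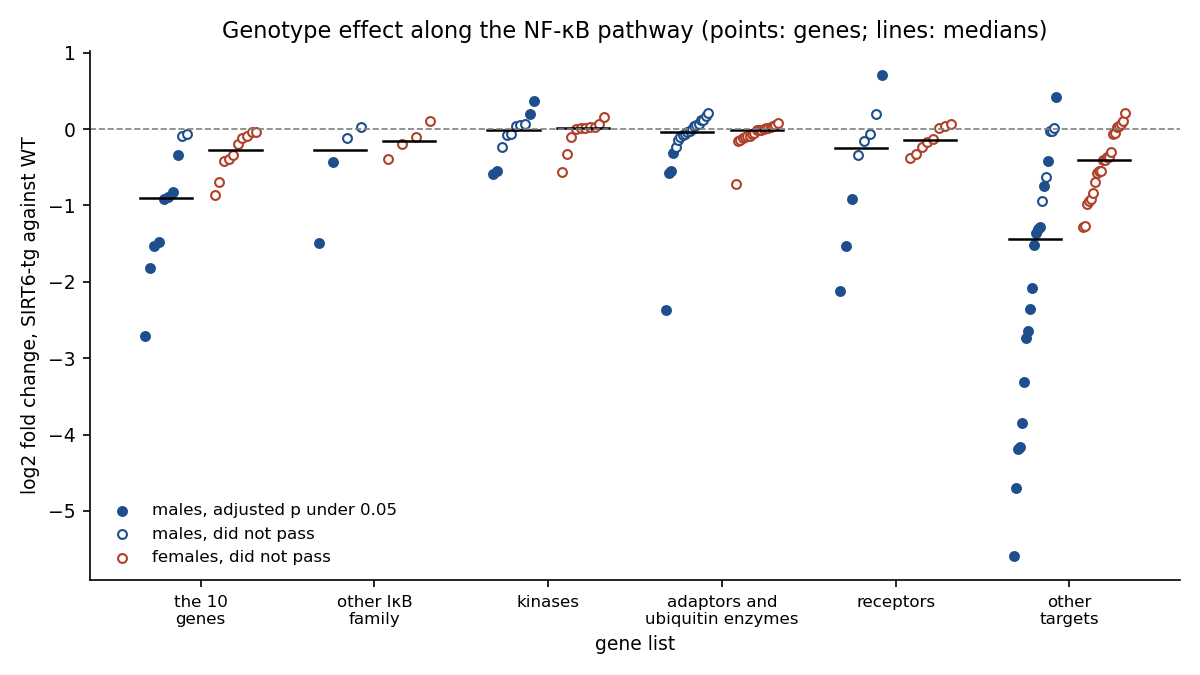
Log2 fold change of SIRT6-tg against WT mice (y axis) for the 10 genes and 5 lists of other pathway genes (x axis), in males (blue) and females (red). Each point is a gene, filled where the adjusted p was under 0.05, and lines are medians. In males the median of the kinases is -0.02 and that of the other targets -1.44.

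The genes whose pattern over the 28 libraries was most like each member were found as the smallest root mean square distance between mean-centred log2 CPM values. For Tnfaip3 the nearest were Icam1 (0.24), Csf2ra (0.28) and Myo1g (0.31), where the median over all genes was 0.88. Nfkb2 and Nfkbie were among the 3 nearest of each other (0.23), with Rhbdf2 (0.21) nearest to Nfkb2. Relb was nearest to Kcnab2 (0.27), Irf8 (0.28) and Ccdc88b (0.29), against a median of 0.82. Tnf was nearest to Lgals3 (0.51), Slc2a6 (0.51) and Ifi47 (0.52), and Il1b to Casp4, AI467606 and Gpr65 (0.43 to 0.44), both at larger distances. Rela and Nfkb1 varied least over the libraries, and their nearest genes were close. Rela was nearest to Lrp10 (0.12), Vps37c and Nacc1 (0.13 each), Nfkb1 to Prkd2 (0.12), Lyn and Wdr1 (0.13 each), Nfkbia to Eef2kmt, Arpc4 and Rilpl2 (0.17 each), and Rel to Mlxip (0.25), Phactr2 and Cdk14 (0.26 each).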

How the data were processed

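RNA was sequenced from the livers of 28 mice, 7 per group of sex and genotype, as the labels give them. Per the methods and processing notes, the authors used STAR 2.5.0a to place single-end reads on mm10 and HTSeq to count the uniquely mapped ones on Gencode genes. The deposited values were raw read counts per gene without normalization, and the strand setting is not given in the sources used here. Gene coordinates came from the Gencode annotation of GRCm38. Replicates were separate mice.

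Genes with a mean of at least 0.5 after scaling by DESeq2 size factors were kept (21583). After TMM normalization genes were tested in edgeR 4.0.16 (R 4.3.3) by its quasi-likelihood method, with 28 libraries in 1 fit, no covariate, and Benjamini-Hochberg adjustment over all genes tested. Log2 CPM had a prior count of 2, and ratios to Rela a pseudocount of 0.5. Total counts between 18758863 and 35393069 set the counting error. The code was tested on simulated data. Figures used matplotlib 3.10.9.

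The genes named were all 10 members, Sirt6, the 2 pathway genes per list and direction with the lowest adjusted p in males, any pathway gene that passed in females, and the 3 genes nearest to each member among those with a mean of at least 10. The members and lists were chosen with earlier results of these data known. Alternatives were RLE and upper-quartile factors, library size alone, filterByExpr, no filter, DESeq2 1.42.0, each sex alone, a replicate block, and each library left out. Ratios and subunit shares were added after seeing the data.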

Additional observations from a re-analysis of the deposited data

Results flagged for a closer look

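In 40 groups of 7 mice (10 genes in 4 groups), 4 had a highest value set apart from the others by more than Dixon's 95% limit for a share of the range, where chance flags about 1 in 20. The genes share the same mice, so the flags are not independent and their number cannot be judged against that rate. Of these, 3 were SIRT6-tg male 6. It had 155 normalized counts of Relb (next highest 97.6), 389 of Nfkb2 (next 268) and 157 of Tnfaip3 (next 101). The remaining one was WT male 6, with 2702 normalized counts of Nfkbia (next 2055). The genotype effect differed between males and females for Tnfaip3 (log2 difference -1.40) and Tnf (-2.51), by the test of the difference itself. Sirt6 also rose unequally in the sexes, so sex and transgene level cannot be told apart.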

How the results depend on the processing

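No called result changed direction under the alternatives run. The 8 calls between male genotypes held in all alternatives, and library size alone made 9. Between female genotypes the count was 0 throughout. Between WT males and WT females it lay between 6 and 8. Genotype effects that differed between the sexes were 2, but 6 with library size alone and 4 with DESeq2. They were 3 with RLE factors, upper-quartile factors or filterByExpr, and 2 to 4 with each library left out (4 without SIRT6-tg male 6). Between SIRT6-tg males and females 2 members passed, but 1 with upper-quartile factors or with library size alone and 1 to 2 with each library left out. Upper-quartile factors lowered the share of higher genes among male calls to 26.2% and RLE factors to 35.7%, from 46.8%. Over all genes DESeq2 called 42 between female genotypes against 6, and each sex fitted alone 2. Library size alone called 1863 differences between the sexes against 1089, and 4212 between WT males and WT females against 2669.

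Replicate numbers gave no clear sign of pairing, but litters and cages are not in the labels and could not be checked. Same-numbered mice correlated above 0.1 in 4 of 7 pairs in males and 3 of 7 in females, and in males none correlated best with its own number. With the replicate block the counts of members were 8 between male genotypes, 0 between female genotypes, 2 for the difference, 6 between WT mice and 2 between SIRT6-tg mice, and 4209 genes passed between male genotypes against 4467. Depth limited Tnf most, with raw counts down to 3 per library.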
